A study of Mus musculus with 24 samples.

Results

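The genes described here are 10 markers of lipid-associated macrophages, taken by symbol from the 54532 genes of the deposited expression table: Trem2, Tyrobp, Gpnmb, Spp1, Mmp12, Cd9, Lgals3, Rnf128, Tm4sf19 and Vsig8. They were measured in epididymal fat from the abdomen (eWAT) and inguinal fat from under the skin (iWAT) of C57BL6 mice. An AAV (adeno-associated virus, a gene delivery vector) gave the mice either irisin, the circulating fragment of the Fndc5 product, or the fluorescent protein GFP, and they ate chow or a high-fat diet (HFD) for 18 weeks. Each of the 8 groups had 3 libraries, 24 in all: eWAT GFP chow, eWAT GFP HFD, eWAT irisin chow, eWAT irisin HFD and the same 4 in iWAT. All mice, controls included, received a virus, and the sources used here give no promoter for the vectors and no age or sex. Nothing in the labels ties each library to its own mouse, so the p-values reflect the spread from library to library, which may be technical.

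Lipid-associated macrophages gather around dying, lipid-laden adipocytes in the fat of obese animals, where they take up and break down lipid. TREM2 is their lipid-sensing surface receptor. It has no signalling tail of its own and works through the adaptor TYROBP (DAP12), which recruits the kinase SYK. The other markers are secreted proteins (osteopontin from Spp1, galectin-3 from Lgals3, the elastase from Mmp12) and membrane proteins of the cell surface and of endosomes and lysosomes (Gpnmb, Cd9, Rnf128, Tm4sf19, Vsig8). In bulk tissue, fewer cells of a type and less RNA per cell cannot be told apart, and Cd9 and Lgals3 are also made by other cells of fat.

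In coordinates of mouse build GRCm38, Trem2 lies at chr17:48346401-48354147, Tyrobp at chr7:30413760-30417585, Gpnmb at chr6:49036546-49070929, Spp1 at chr5:104435118-104441050 and Mmp12 at chr9:7344381-7369499. Lgals3 lies at chr14:47367751-47386160, Rnf128 at chrX:139563316-139673145, Tm4sf19 at chr16:32400506-32408227 and Vsig8 at chr1:172555938-172563717, all on the plus strand. Cd9 lies on the minus strand at chr6:125460266-125494791. All 10 are protein coding, and no gene that overlaps Spp1, Mmp12, Cd9, Rnf128 or Vsig8 exceeded 0.951 FPKM in any library.

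Because the members moved together in eWAT, the 250 bases upstream of their start sites were searched on both strands for the core letters that PU.1, a master factor of macrophages, binds (GAGGAAG), for the AP-1 letters TGANTCA, and for CACGTG and CATGTG, letters that factors of the MiT/TFE family bind. RefSeq promoters (GRCm38.p6) were matched for 9 of the 10 genes. Those of Lgals3 and Rnf128 belong to starts 6109 and 47304 bases from the 5′ ends of the deposited genes, and the other 7 to starts within 31 bases. The PU.1 letters were found in 4 of 9 and in 10.6% of 32851 promoters of the same length. The AP-1 letters were found in 1 of 9 (Trem2, against 6.75% of promoters), CATGTG in 1 of 9 (Cd9, 38 bases upstream, against 12.3%) and CACGTG in 0 of 9 (against 6.02%). The 4 promoters with the PU.1 letters are shown in the direction of the gene, with matches in capitals. In Trem2 the capitals nearer the start site, 9 bases upstream, are the AP-1 match. The PU.1 match, read on the other strand in Trem2 and Mmp12, begins 41 bases upstream in Trem2, 113 in Spp1, 87 in Mmp12 and 214 in Vsig8.
Trem2, chr17:48346151-48346400, plus strand: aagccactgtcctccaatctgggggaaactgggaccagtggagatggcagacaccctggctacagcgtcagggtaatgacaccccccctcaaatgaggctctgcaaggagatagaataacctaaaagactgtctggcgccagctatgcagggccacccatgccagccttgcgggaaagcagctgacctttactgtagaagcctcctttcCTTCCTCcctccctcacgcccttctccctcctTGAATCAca
Spp1, chr5:104434861-104435110, plus strand: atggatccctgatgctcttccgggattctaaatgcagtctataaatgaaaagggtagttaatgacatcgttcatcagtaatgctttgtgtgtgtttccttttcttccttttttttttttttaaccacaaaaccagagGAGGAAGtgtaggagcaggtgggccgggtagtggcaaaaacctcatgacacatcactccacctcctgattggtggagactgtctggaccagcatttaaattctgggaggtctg
Mmp12, chr9:7344147-7344396, plus strand: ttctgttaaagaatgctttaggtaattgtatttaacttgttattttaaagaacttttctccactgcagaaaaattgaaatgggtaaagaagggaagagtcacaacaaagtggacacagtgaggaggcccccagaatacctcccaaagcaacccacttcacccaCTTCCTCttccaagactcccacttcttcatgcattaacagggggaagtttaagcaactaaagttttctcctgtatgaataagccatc
Vsig8, chr1:172555688-172555937, plus strand: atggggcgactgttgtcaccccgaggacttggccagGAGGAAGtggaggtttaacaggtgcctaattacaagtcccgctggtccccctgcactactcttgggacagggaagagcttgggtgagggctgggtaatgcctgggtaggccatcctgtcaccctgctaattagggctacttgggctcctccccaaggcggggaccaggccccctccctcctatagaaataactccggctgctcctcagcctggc
A match describes these letters only, and binding was not measured.

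Values are FPKM, reads scaled to gene length and library size, as deposited. The gene length used ran from 667 bases (Tyrobp) to 7237 bases (Mmp12), and an order of genes by FPKM depends on these lengths. The gene reads recovered from the FPKM totalled from 14.1 M to 19.7 M in a library (median 16.4 M). Fold changes are from limma on log2(FPKM + 0.5), given ± SE, and come out smaller than the ratio of means where levels are low. A gene was called where p, adjusted over all genes tested, was under 0.05. The depot labels held: Wt1, made by visceral fat, averaged 2.31 FPKM or more in each eWAT group and at most 0.0105 FPKM in each iWAT group. Fndc5 averaged 0.325 FPKM in eWAT GFP chow and 0.886 FPKM in irisin chow, and 0.205 FPKM in iWAT GFP HFD and 2.49 FPKM in irisin HFD. The iWAT irisin HFD libraries were unequal, at 0.392, 3.17 and 3.91 FPKM. In eWAT on HFD the Fndc5 means were 2.60 FPKM with GFP and 3.10 FPKM with irisin. In iWAT on chow they were 0.490 FPKM with GFP and 1.59 FPKM with irisin, and the groups overlapped.

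Transcripts of other tissues were high in 4 libraries. The summed level of 8 epididymal genes was 4271 FPKM in eWAT GFP HFD 3 and at most 0.879 FPKM in all others. The sum of 10 B cell genes was 517 FPKM in iWAT GFP HFD 1 and 151 FPKM in eWAT GFP chow 1, against at most 29.2 FPKM elsewhere. The sum of 10 skeletal muscle genes was 4388 FPKM in iWAT irisin chow 3, and 90.3 and 299 FPKM in the other irisin chow libraries of iWAT. Elsewhere it was at most 92.4 FPKM in eWAT irisin HFD and at most 43.2 FPKM in each other group. Counts without these 4 libraries are given beside the results they change. The library iWAT GFP chow 3 held the least macrophage RNA, with 296 FPKM summed over 14 genes of macrophages in general against 1773 and 1834 FPKM in its group.

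On HFD the eWAT of GFP mice held all 10 genes at far higher levels than on chow, and in every one the lowest HFD library lay above the highest chow library. Trem2 measured 2.61, 3.57 and 4.69 FPKM in the chow libraries and 119, 83.3 and 71.3 FPKM in the HFD libraries. Tyrobp measured 57.2, 39.4 and 48.2 FPKM on chow and 506, 445 and 371 FPKM on HFD. The adaptor thus had the higher FPKM of the pair in every one of these libraries, and the receptor had the larger fold change. In reads Tyrobp was higher on chow, and Trem2 on HFD (9647, 7043 and 6303 against 5546, 5070 and 4425). The lengths used were 4946 bases for Trem2 and 667 for Tyrobp, so which transcript was more abundant was not settled. Trem2 rose by 4.47 ± 0.59 on the log2 scale (limma, adjusted p = 0.00104) and Tyrobp by 3.18 ± 0.50 (adjusted p = 0.00196). As ratios of group means these were 25.1-fold and 9.13-fold, beside 7.61-fold for Adgre1, which encodes the general macrophage protein F4/80.

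Among the secreted proteins, galectin-3 had the highest FPKM and the metalloelastase the largest change. Lgals3, a lectin that binds sugars on damaged membranes, measured 56.1, 94.4 and 62.9 FPKM on chow and 1532, 934 and 1085 FPKM on HFD, a rise of 4.05 ± 0.45 (adjusted p = 0.00061). Mmp12, which cuts elastin, measured 1.11, 0.508 and 0.0331 FPKM on chow and 498, 139 and 377 FPKM on HFD, a rise of 8.29 ± 0.77 (adjusted p = 0.000357). Its change ranked 1 of the 16274 genes tested in eWAT. Spp1, which encodes a phosphoprotein that binds integrins and CD44, measured 0.68, 0.131 and 1.09 FPKM on chow and 144, 53.9 and 381 FPKM on HFD, a rise of 7.09 ± 0.83 (adjusted p = 0.000732). Its HFD libraries were the most unequal of the 10 genes, spanning 7.06-fold. The highest, eWAT GFP HFD 3, is also the library rich in epididymal genes, and whether these contributed was not tested. Without that library Spp1 rose by 6.39 (adjusted p = 0.00383).

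Among the membrane proteins, the glycoprotein gene Gpnmb, known for its place in lysosomes and melanosomes, measured 4.53, 1.89 and 3.76 FPKM on chow and 744, 396 and 629 FPKM on HFD. It rose by 7.26 ± 0.72 (adjusted p = 0.000422) and ranked 2 of all genes tested. Its mean FPKM on HFD was second only to that of Lgals3 among the 10 genes. Cd9, a tetraspanin found on many cell types, measured 23.9, 22.5 and 21.4 FPKM on chow and 163, 98.5 and 128 FPKM on HFD. Its rise of 2.47 ± 0.40 (adjusted p = 0.00213), a 5.74-fold ratio of means, was the smallest of the 10. Rnf128, a ubiquitin ligase of endosomes, measured 0.514, 0.312 and 0.207 FPKM on chow and 85.3, 35.3 and 81.6 FPKM on HFD, a rise of 6.24 ± 0.67 (adjusted p = 0.000573).

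A pair of less studied membrane genes went from near nothing to clear expression. Tm4sf19, of the transmembrane 4 L6 family, had 3 reads in all in the chow libraries (0.157, 0 and 0 FPKM) and 36.7, 27.6 and 38.6 FPKM on HFD. From its reads the ratio was 658 with a 95% interval of 225 to 3193, which covers counting error only. Vsig8, of the immunoglobulin family, measured 0.246, 0.422 and 0 FPKM on chow and 113, 38.0 and 49.8 FPKM on HFD. The fitted changes were 5.97 ± 0.62 for Tm4sf19 and 6.43 ± 0.60 for Vsig8 (adjusted p = 0.00052 and 0.000357), values that depend on the pseudocount. Ranked by fold change over all genes, Spp1 stood at 3, Vsig8 at 6, Rnf128 at 7, Tm4sf19 at 8, Trem2 at 20, Lgals3 at 33, Tyrobp at 97 and Cd9 at 207.

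All 10 genes were called higher, where 14.7% of the genes tested were called higher, and all 10 had groups that did not overlap, where 22.9% of genes did so upward. In eWAT 6 of the 10 passed the filter on low values (0.5 FPKM in 3 libraries) on chow libraries alone. Spp1, Rnf128, Tm4sf19 and Vsig8 passed only through the HFD libraries and so had to differ, so the count over the 10 is a description. With no filter on low values all 10 were called as well. Without the 4 libraries rich in other tissues all 10 were called, with log2 changes from 2.50 (Cd9) to 8.49 (Mmp12).

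In irisin mice HFD was followed by the same direction in eWAT, with smaller values and a wider spread. Trem2 measured 3.12, 3.41 and 4.55 FPKM on chow and 60.6, 10.4 and 81.2 FPKM on HFD, a rise of 3.19 ± 0.59 (limma, adjusted p = 0.00697). Gpnmb measured 2.71, 1.43 and 3.25 FPKM on chow and 231, 45.1 and 568 FPKM on HFD, a rise of 5.99 ± 0.72 (adjusted p = 0.00124). In both genes the middle library of the HFD group stood far under the other two but above all chow libraries. All 10 genes were called higher, against 9.47% of genes, and in 9 of 10 the groups did not overlap, against 18.9% of genes. Spp1, Rnf128, Tm4sf19 and Vsig8 passed the filter only through HFD libraries, so these counts too are a description. Mmp12 rose by 5.70, Spp1 by 4.80, Vsig8 by 4.71, Tm4sf19 by 4.55, Rnf128 by 4.38, Lgals3 by 3.23 and Tyrobp by 2.36. Cd9 was the exception in overlap: 25.9, 18.9 and 27.0 FPKM on chow against 78.9, 26.1 and 97.9 FPKM on HFD. Its change of 1.29 ± 0.40 (adjusted p = 0.0462) was lost when any 1 of the 6 libraries but irisin HFD 2 was left out (highest adjusted p = 0.153), with no filter (0.0961), with voom on the reads (0.0609) and without the 4 libraries (0.071). With voom Spp1 also missed the threshold (adjusted p = 0.0765).

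**Figure D1:**
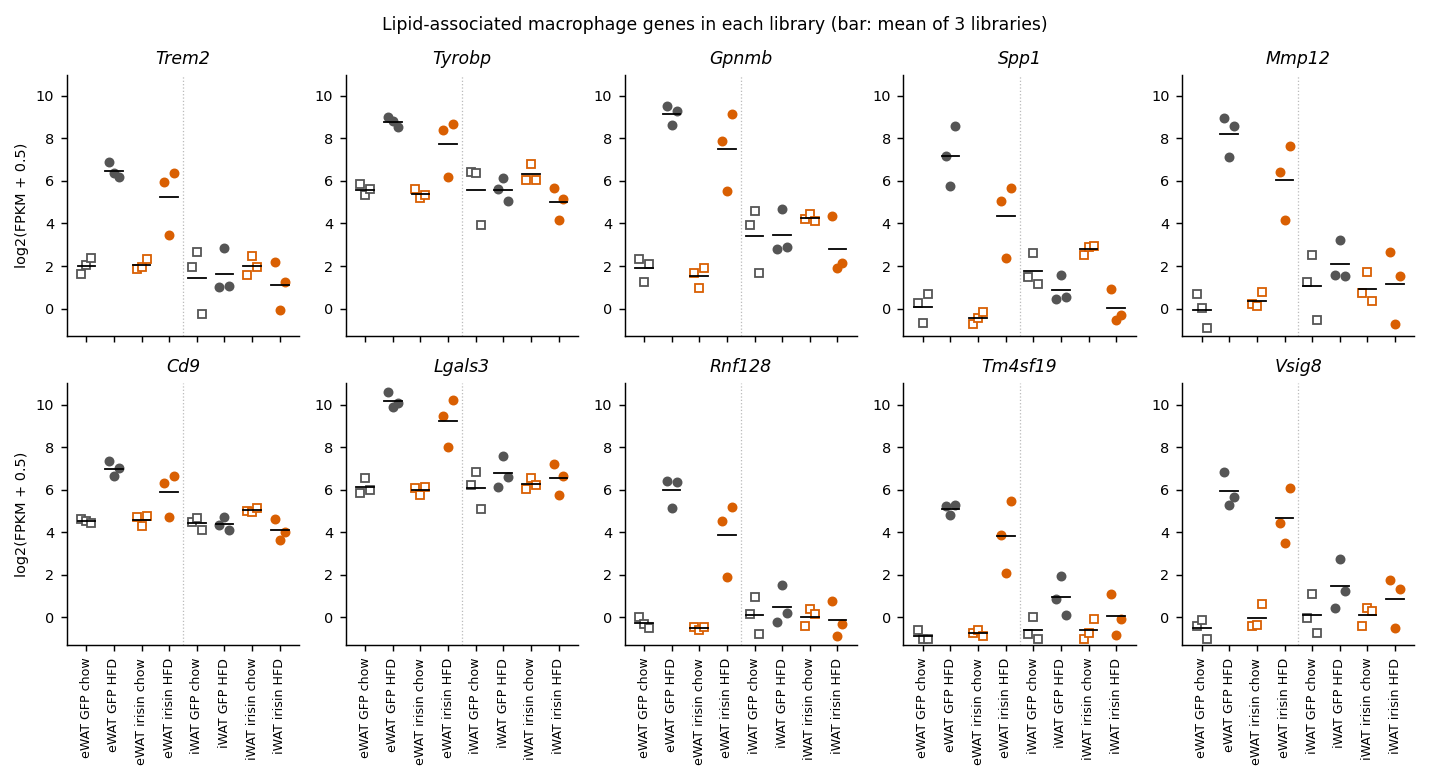
Level of each gene in each of the 24 libraries, as log2(FPKM + 0.5), by group (horizontal axis: 4 eWAT groups left of the dotted line, 4 iWAT groups right of it); each symbol is 1 library, open squares are chow, filled circles HFD, grey GFP, orange irisin, and bars are means of 3 libraries. In all 10 panels the eWAT GFP HFD group has the highest mean and the eWAT irisin HFD group the next, with 1 irisin HFD library under the other two.

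The order of the 8 groups was the same at the top for all 10 genes: eWAT GFP HFD first, eWAT irisin HFD next. These neighbours overlapped in 8 genes and did not in Spp1 and Cd9. The step from the second group to the next was free of overlap in 7 genes and not in Tyrobp, Spp1 and Cd9. Lower in the order neighbouring groups overlapped, with the exception of Cd9 in iWAT irisin chow and eWAT irisin chow. In the eWAT GFP HFD group mean levels ran from 1183 ± 311 FPKM for Lgals3 (SD, n = 3) through 590 ± 178 for Gpnmb, 441 ± 67.7 for Tyrobp, 338 ± 183 for Mmp12, 193 ± 169 for Spp1, 130 ± 32.4 for Cd9 and 91.1 ± 24.7 for Trem2 down to 67.4 ± 27.9 for Rnf128, 66.9 ± 40.3 for Vsig8 and 34.3 ± 5.92 for Tm4sf19.

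On HFD the eWAT of irisin mice had lower means than that of GFP mice for all 10 genes, and none of the differences passed the test. The irisin means were between 15.0% (Spp1) and 61.7% (Tyrobp) of the GFP means. Spp1 measured 32.3, 4.75 and 49.7 FPKM with irisin against 144, 53.9 and 381 FPKM with GFP, a difference of -2.81 ± 0.83 (limma, adjusted p = 0.533). Mmp12 measured 84.1, 17.2 and 197 FPKM against 498, 139 and 377 FPKM, a difference of -2.16 ± 0.77 (adjusted p = 0.533). Spp1 did not overlap between the groups, and the highest irisin library of Mmp12 lay above the lowest GFP library. Cd9, with 78.9, 26.1 and 97.9 FPKM against 163, 98.5 and 128 FPKM, was the only other gene without overlap, by a margin between 97.9 and 98.5 FPKM. Groups that do not overlap downward were found in 6.76% of all genes. For the other genes the differences were -1.24 ± 0.59 (Trem2), -1.02 ± 0.50 (Tyrobp), -1.65 ± 0.72 (Gpnmb), -1.11 ± 0.40 (Cd9), -0.97 ± 0.45 (Lgals3), -2.10 ± 0.67 (Rnf128), -1.28 ± 0.62 (Tm4sf19) and -1.25 ± 0.60 (Vsig8). Of 16274 genes 0 (0.0%) were called by limma in this comparison, 0 with voom, and 1510 had an unadjusted p under 0.05.

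The irisin HFD libraries were not alike. The second was the lowest of the 6 eWAT HFD libraries for all 10 genes, at 2.46% to 21.5% of the GFP mean. The first was the fifth for all 10, at 16.7% to 76.6%, and the third reached 25.8% to 129%, with the highest Tm4sf19 of all 24 libraries (44.4 FPKM). The second library also differed in cell markers. Its 14 general macrophage genes summed to 1404 FPKM against 4068 and 4288 FPKM in the others of its group and 4462 to 5869 FPKM with GFP. Its 10 adipocyte genes summed to 13468 FPKM against 5326 and 6654 FPKM, and 4484 to 5282 FPKM with GFP. None of the macrophage or adipocyte markers was at 0 in any group, and their part in the difference was not tested. Without that library the differences shrank to -0.34 for Trem2, -0.24 for Tyrobp, -0.65 for Gpnmb, -1.83 for Spp1, -1.20 for Mmp12 and -0.53 for Cd9, and to between -1.12 and -0.36 for the other 4 genes.

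**Figure D2:**
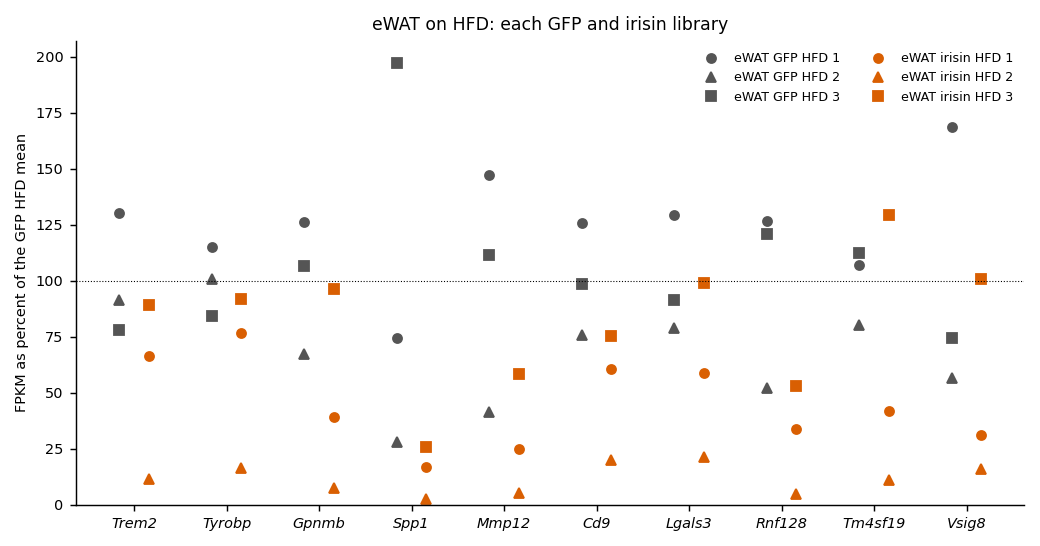
FPKM of each gene in the 6 eWAT libraries on HFD, as percent of the mean of the 3 GFP libraries (dotted line, 100%); grey symbols are GFP libraries, orange symbols irisin libraries, and the shape gives the replicate number (circle 1, triangle 2, square 3). The orange triangle, irisin HFD 2, is lowest for every gene. The orange square lies within the range of the grey symbols except in Spp1 and Cd9, where it is below, and Tm4sf19, where it is above.

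The test of whether the diet effect in eWAT differed between irisin and GFP mice called 0 of the 10 genes and 1 of 16274 genes (0.00614%). The differences ranged from -2.58 ± 1.09 (Mmp12) and -2.29 ± 1.17 (Spp1) to -0.82 ± 0.71 (Tyrobp) and -0.82 ± 0.64 (Lgals3), each with adjusted p = 0.908. The smaller rise of these genes in irisin mice is therefore not shown to differ from that in GFP mice. On chow, irisin and GFP libraries of eWAT lay between -0.53 ± 0.83 (Spp1) and 0.47 ± 0.60 (Vsig8) of each other. On chow 0 of 16274 genes were called by limma, 0 with voom, and 845 had an unadjusted p under 0.05. These comparisons share libraries with the diet comparisons.

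In iWAT of GFP mice none of the 10 genes passed the test between HFD and chow, and the ratios of means ran from 0.447 (Spp1) to 4.01 (Vsig8) and 8.72 (Tm4sf19). Trem2 measured 3.40, 5.87 and 0.327 FPKM in GFP chow and 1.49, 6.72 and 1.56 FPKM in GFP HFD, and the groups overlapped. Gpnmb measured 14.7, 23.5 and 2.68 FPKM on chow and 6.46, 25.2 and 6.89 FPKM on HFD, again with overlap. In GFP mice 0 of 10 genes were called by limma and 0 with voom, against 2.37% of the 16125 genes tested called by limma, and 3085 of the 16125 had an unadjusted p under 0.05. The highest values were 1.56 ± 0.55 for Tm4sf19 (adjusted p = 0.164), the only gene without overlap, and 1.36 ± 0.71 for Vsig8 (adjusted p = 0.322). Tm4sf19 measured 0.0873, 0.518 and 0 FPKM on chow and 1.30, 3.38 and 0.593 FPKM on HFD, and it passed the filter in iWAT only through HFD libraries. Groups without overlap upward were found in 12% of genes.

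In the iWAT of irisin mice 2 of the 10 genes fell on HFD, where 4.19% of genes were called lower. Spp1 measured 5.25, 6.95 and 7.25 FPKM on chow and 1.41, 0.182 and 0.304 FPKM on HFD, a change of -2.77 ± 0.47 (limma, adjusted p = 0.00875). The HFD mean was 9.77% of the chow mean, the opposite direction to eWAT. Cd9 measured 31.0, 30.9 and 34.3 FPKM on chow and 24.4, 11.95 and 15.6 FPKM on HFD, a change of -0.93 ± 0.25 (adjusted p = 0.0419). Tyrobp, with 66.4, 110 and 65.9 FPKM on chow and 50.8, 17.5 and 35.4 FPKM on HFD, had groups apart and was not called (-1.29 ± 0.62, adjusted p = 0.203). Groups apart downward were found in 19.2% of genes. General macrophage markers moved beside these values: their 14 genes, none at 0, summed to 1638 to 2307 FPKM on chow and 337 to 912 FPKM on HFD. The irisin chow libraries are also those of iWAT with the most muscle RNA, and the part of either in these values was not tested. Without the 4 libraries rich in other tissues Spp1 fell by 2.69 (adjusted p = 0.029), and Cd9 (-0.88, adjusted p = 0.105) missed the threshold. Cd9 also missed it when any 1 of the 6 libraries but irisin HFD 1 was left out (highest adjusted p = 0.138).

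**Figure D3:**
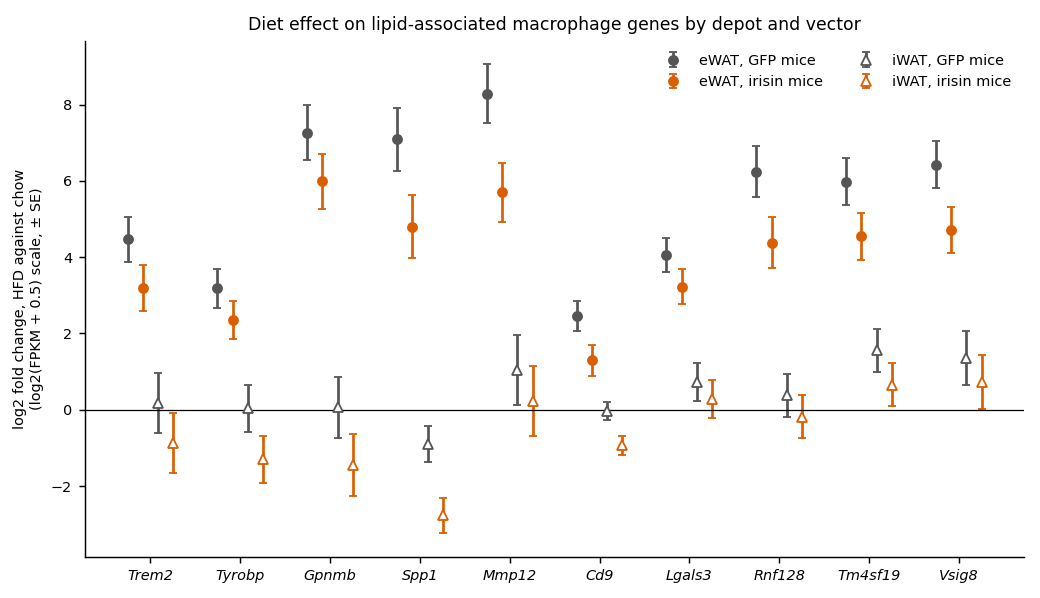
Log2 fold change of HFD against chow ± SE on the log2(FPKM + 0.5) scale for each gene (horizontal axis); filled circles are eWAT, open triangles iWAT, grey GFP mice, orange irisin mice, and each value compares 3 with 3 libraries. The eWAT values run from 1.29 to 8.29, and the iWAT values from -2.77 (Spp1, irisin mice) to 1.56 (Tm4sf19, GFP mice).

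Between irisin and GFP libraries of iWAT 0 of the 10 genes were called on either diet, and 0 of 16125 genes (0.0%) by limma or with voom. The counts with an unadjusted p under 0.05 were 431 on HFD and 688 on chow. On HFD the differences ran from -0.96 ± 0.91 (Mmp12) to -0.24 ± 0.49 (Lgals3). On chow Spp1 (1.04 ± 0.47) and Cd9 (0.60 ± 0.25, both adjusted p = 0.919) had the largest size relative to their SE, and Cd9 alone did not overlap, as did 8.22% of genes upward. The vector by diet test in iWAT called 0 of 10 genes and 0 of 16125, with 996 at an unadjusted p under 0.05.

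On HFD all 10 genes were higher in eWAT than in iWAT of GFP mice, where 9.68% of genes were called higher. The differences were 6.31 ± 0.71 for Spp1, 6.10 ± 0.90 for Mmp12, 5.70 ± 0.82 for Gpnmb, 5.48 ± 0.66 for Rnf128, 4.85 ± 0.74 for Trem2 and 4.44 ± 0.70 for Vsig8. Tm4sf19 (4.13 ± 0.62), Lgals3 (3.40 ± 0.50), Tyrobp (3.18 ± 0.60) and Cd9 (2.60 ± 0.35) followed. The ratios of means lay between 6.22 (Cd9) and 133 (Spp1). In irisin mice all 10 were higher as well, where 6.75% of genes were, by 1.79 ± 0.35 (Cd9) to 4.90 ± 0.90 (Mmp12). Tyrobp missed the threshold there without eWAT irisin HFD 1 or 3 or iWAT irisin HFD 2 (highest adjusted p = 0.0556).

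On chow 0 of the 10 genes were called between depots in GFP mice by limma or with voom, where 4.63% of genes were and 2657 had an unadjusted p under 0.05. Some means were unequal: Spp1 in eWAT (0.68, 0.131 and 1.09 FPKM) lay under iWAT (2.26, 5.71 and 1.73 FPKM) without overlap, as did 8.12% of genes, with a mean at 19.6% of that in iWAT. Gpnmb stood at 24.9% and Mmp12 at 22.7% of the iWAT mean, with overlap. In irisin mice Spp1 alone was called, lower in eWAT, where 1.93% of genes were called lower. It measured 0.109, 0.229 and 0.391 FPKM in eWAT and 5.25, 6.95 and 7.25 FPKM in iWAT, groups far apart, with a difference of -3.24 ± 0.71 (limma, adjusted p = 0.00964). With voom it was not called (adjusted p = 0.159). Gpnmb had the next value, -2.73 ± 0.82 (adjusted p = 0.0664), from 2.46 FPKM in eWAT and 18.5 FPKM in iWAT. In these mice 5 of the 10 genes (Tyrobp, Gpnmb, Spp1, Cd9, Rnf128) were lower in eWAT without overlap, as were 14.3% of genes. The means of Trem2 on chow lay between 3.20 and 3.69 FPKM in all 4 groups of both depots.

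The difference between depots in the diet effect was tested directly and was called for all 10 genes in both vectors, where 2.98% of genes were called upward in GFP mice and 2.71% in irisin mice. In GFP mice it was 7.98 ± 1.01 for Spp1, 7.20 ± 1.16 for Gpnmb, 4.29 ± 1.05 for Trem2 and 2.50 ± 0.49 for Cd9. Without the 4 libraries rich in other tissues 4 genes remained called in GFP mice (Gpnmb, Spp1, Mmp12, Rnf128) and 3 in irisin mice (Gpnmb, Spp1, Rnf128), and the value that moved most was that of Spp1 in GFP mice, from 7.98 to 7.15. In irisin mice the count fell to between 2 and 6 when any 1 of 9 libraries was left out. The test of whether the irisin effect on HFD differed between depots called 0 of the 10 genes and 0 of 17687 (0.0%) by limma, 0 of the 10 with voom, and 443 genes had an unadjusted p under 0.05.

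In eWAT 9 of the 10 genes, all but Cd9, were higher on HFD relative to the mean of general macrophage genes by more than the spread between libraries. For this, the mean log2 level of the 14 general macrophage genes was taken from each gene in each library, and HFD was compared with chow over 6 and 6 libraries by an exact two-sided permutation test within vectors (smallest possible p = 0.005, adjusted over 20 tests). Relative to these genes Mmp12 was higher on HFD by 5.45, Gpnmb by 5.08, Spp1 by 4.40, Vsig8 by 4.02, Rnf128 by 3.76, Tm4sf19 by 3.72, Trem2 by 2.29, Lgals3 by 2.10 and Tyrobp by 1.23. Each of these 9 reached the smallest p (adjusted p = 0.01). Cd9 differed by 0.33 (exact permutation p = 0.09, adjusted p = 0.112), so that its rise was not shown to exceed that of the general macrophage genes. For Trem2 the ratio to Adgre1 was 0.129 to 0.204 in eWAT GFP chow and 0.464 to 0.701 in GFP HFD, 0.187 to 0.307 in irisin chow and 0.324 to 0.56 in irisin HFD. The lowest HFD ratio, 0.324, belongs to irisin HFD 2, the library with the lowest macrophage levels, and lies above every chow ratio. For Tyrobp the ratio to Adgre1 overlapped between the diets. It was 1.99 to 2.83 in eWAT GFP chow and 2.48 to 3.03 in GFP HFD, 2.33 to 2.90 in irisin chow and 2.26 to 2.93 in irisin HFD. A rise of Tyrobp beyond that of Adgre1 was thus not shown. Relative to the 14 genes Adgre1 itself ran from -0.887 to -0.409 on chow and from -0.0120 to 0.694 on HFD. For Lgals3 the ratio to Adgre1 also overlapped (2.59 to 5.40 in GFP chow, 5.21 to 9.04 in GFP HFD). For Cd9 it ran lower on HFD, with overlap (0.882 to 1.29 in GFP chow, 0.549 to 1.04 in GFP HFD). For Gpnmb, Spp1, Mmp12, Rnf128, Tm4sf19 and Vsig8 every HFD ratio in eWAT lay above every chow ratio.

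In iWAT 6 of 10 genes differed relative to the general macrophage genes. Tm4sf19 was higher on HFD by 1.93, Vsig8 by 1.86, Mmp12 by 1.46, Lgals3 by 1.32 and Rnf128 by 0.92, and Spp1 was lower by 1.01 (exact permutation, adjusted p from 0.01 to 0.0267). For Trem2 (0.47), Tyrobp (0.19), Gpnmb (0.13) and Cd9 (0.34) the test was not passed, with adjusted p from 0.159 to 0.75. Single libraries decided some of these calls. Spp1 (-0.89) was not called without iWAT GFP HFD 1 and Rnf128 (0.76) not without iWAT GFP HFD 2 (adjusted p = 0.0533 each), while Cd9 (0.60, adjusted p = 0.00909) was called without iWAT GFP chow 3. Tm4sf19, Vsig8 and Rnf128 were often under 0.5 FPKM in iWAT, where the pseudocount holds their log2 level, so that their relative value moves with the macrophage genes themselves. At a pseudocount of 0.1 Mmp12 (1.56, adjusted p = 0.0857) and Rnf128 (0.93, adjusted p = 0.0933) missed the threshold. Only the 10 genes were put to this test in either depot, so no share of all genes stands beside the counts. In iWAT of irisin mice the general macrophage genes themselves summed to 1638 to 2307 FPKM on chow and 337 to 912 FPKM on HFD. In GFP mice the sums overlapped (296 to 1834 and 576 to 1064 FPKM). Where these genes fall, a gene that stays level comes out higher. By limma none of the 10 genes was called higher on HFD in iWAT.

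**Figure D4:**
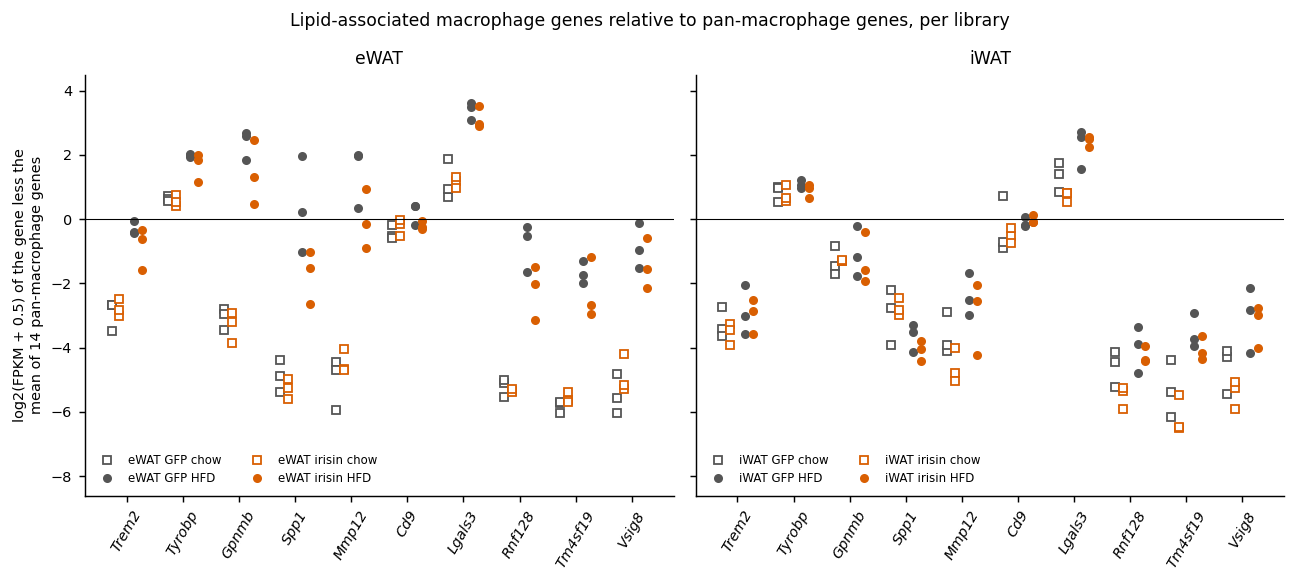
Level of each gene relative to macrophages in general: log2(FPKM + 0.5) of the gene less the mean over 14 pan-macrophage genes (vertical axis), in each eWAT library (left) and iWAT library (right); open squares are chow, filled circles HFD, grey GFP, orange irisin. In eWAT the HFD symbols lie above the chow symbols for every gene but Cd9, where they overlap; in iWAT they overlap for every gene but Tm4sf19.

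Other genes of the lipid-associated program were counted by list, to be read against the 14.7% of all genes called higher and 11.8% called lower in eWAT of GFP mice. There 15 of 15 lysosome genes rose (median log2 change 1.75, against 0.00 for all genes tested). They included the proton pump subunit gene Atp6v0d2 (7.09 ± 0.58), the cathepsin genes Ctsz (1.89 ± 0.24) and Ctsd (1.94 ± 0.25), and Cd68 (3.97 ± 0.50). Of 14 tested surface and secreted genes 13 rose (median 2.69), with the integrin gene Itgax, which encodes CD11c, at 5.54 ± 0.67, the lectin receptor gene Clec4d at 3.91 ± 0.56, Cd84 at 3.63 ± 0.46 and the cathepsin inhibitor gene Cstb at 2.24 ± 0.26. Of 14 tested lipid genes 9 rose and 1 fell (median 1.04). The rises included the lysosomal lipase gene Lipa (3.47 ± 0.45), the lipid droplet gene Plin2 (2.45 ± 0.29), the sterol exporter gene Abcg1 (2.20 ± 0.28) and the fatty acid binding gene Fabp5 (2.06 ± 0.25). In irisin mice 11 of 15 lysosome genes, 9 of 14 surface and secreted genes and 7 of 14 lipid genes rose, and 1 lipid gene fell, where 9.47% of all genes rose and 7.93% fell. Some genes stand in more than 1 list: Cd68, Cd53 and Csf1r are also general macrophage genes, Cd63 is both a lysosome gene and a tetraspanin, and Fabp4 is also an adipocyte marker.

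The receptor pathway showed smaller values than its receptor, and its counts have the same shares of all genes beside them (14.7% higher and 11.8% lower in GFP mice, 9.47% and 7.93% in irisin mice). Of 15 genes of TREM2 and TYROBP signalling 11 rose in GFP mice and 0 fell (median 1.29), and 5 rose in irisin mice. Inpp5d, a lipid phosphatase gene that restrains the pathway, rose by 1.69 ± 0.41, the kinase genes Lyn and Pik3cg by 1.29 ± 0.27 and 1.21 ± 0.22, and Adam10, whose protease sheds TREM2, by 0.84 ± 0.15. Of 5 tested partner receptors of TYROBP, Trem2 itself among them, 3 rose and 1 fell: Sirpb1a rose by 1.58 ± 0.37, Csf1r by 1.15 ± 0.32, and Siglech, a marker of plasmacytoid dendritic cells, fell by 1.09. All 4 MiT/TFE factors, which drive lysosome genes, rose in GFP mice (Tfec 1.47 ± 0.33, Mitf 1.31 ± 0.28, Tfeb 1.13 ± 0.29, Tfe3 0.71 ± 0.21), and 0 of 4 were called in irisin mice (median 0.31).

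Receptors and relatives of the secreted and membrane proteins went both ways in eWAT of GFP mice, where 14.7% of all genes rose and 11.8% fell. Of 8 receptors of osteopontin and galectins 5 rose and 0 fell, Cd44 by 2.86 ± 0.41, Itgav by 1.03 ± 0.22, Itga4 by 1.002 ± 0.234 and Itgb1 by 0.59 ± 0.14. Of 9 tested metalloprotease and elastin genes, Mmp12 among them, 5 rose and 2 fell: Mmp13, a collagenase gene, rose by 3.10 ± 0.48 and Mmp19 by 1.44 ± 0.24, while Mmp9, a gelatinase gene, fell by 2.69. Of 10 tetraspanins, Cd9 among them, 4 rose and 3 fell, with Cd53 at 2.33 ± 0.43, Cd63 at 1.30 ± 0.26 and Tspan4 at 0.44 ± 0.10. Of 3 tested TM4SF genes Tm4sf19 rose and Tm4sf1 fell by 0.67. Of 9 tested genes of osteoclasts and giant cells, which share Atp6v0d2 and Mmp9 with other lists, 5 rose and 2 fell, among them the protease gene Ctsk (4.66 ± 0.59) and the fusion gene Dcstamp (3.43 ± 0.53).

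Markers of cell types moved beside these genes in eWAT of GFP mice. Of 14 general macrophage genes 13 rose (median 1.68), and their sum went from 1193 to 1665 FPKM on chow to 4462 to 5869 FPKM on HFD. Adgre1 rose by 2.89 ± 0.43. Of 12 genes of resident macrophages 8 fell and 2 rose (median -1.56), where 11.8% of all genes were called lower, with Retnla down by 4.11, Lyve1 by 3.21, Timd4 by 2.52 and Mgl2 by 1.94. Their sum went from 1107 to 1749 FPKM to 392 to 450 FPKM. In irisin mice 6 of 14 general genes rose, 5 of 12 resident genes fell (7.93% of all genes were called lower), and the resident sum on HFD ran from 472 FPKM to 1760 FPKM. Of 10 adipocyte markers 7 fell and 1 (Lep) rose, with Cfd down by 5.93 and Adipoq by 1.61, and the sum went from between 17679 and 23831 FPKM to between 4484 and 5282 FPKM.

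Few single markers of other leukocytes were called, in shares to be read against 14.7% of all genes higher and 11.8% lower. Of 8 tested monocyte and neutrophil markers 1 rose (S100a8, 3.14 ± 0.33), and their sum was 15.1 to 27.5 FPKM on chow and 29.3 to 31.9 FPKM on HFD, with the neutrophil marker Ly6g at 0 in both groups. Of 7 tested dendritic cell markers 1 fell (Cd209a, by 1.70), of 11 T and NK cell markers 1 rose (Gzma, 0.67 ± 0.20). The summed T and NK level was 3.02, 3.67 and 24.7 FPKM on chow, in ascending order, and 13.7, 17.4 and 31.6 FPKM on HFD, with overlap. Of 9 B cell markers 3 fell, in a comparison that holds the B cell rich chow library. Of 8 endothelial markers 0 were called, of 8 stromal markers 1 rose and 3 fell, and of 6 mesothelial markers 4 fell. The part of these shifts in cell makeup in the values of the 10 genes was not tested. The lists were chosen with results of these data known.

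**Figure D5:**
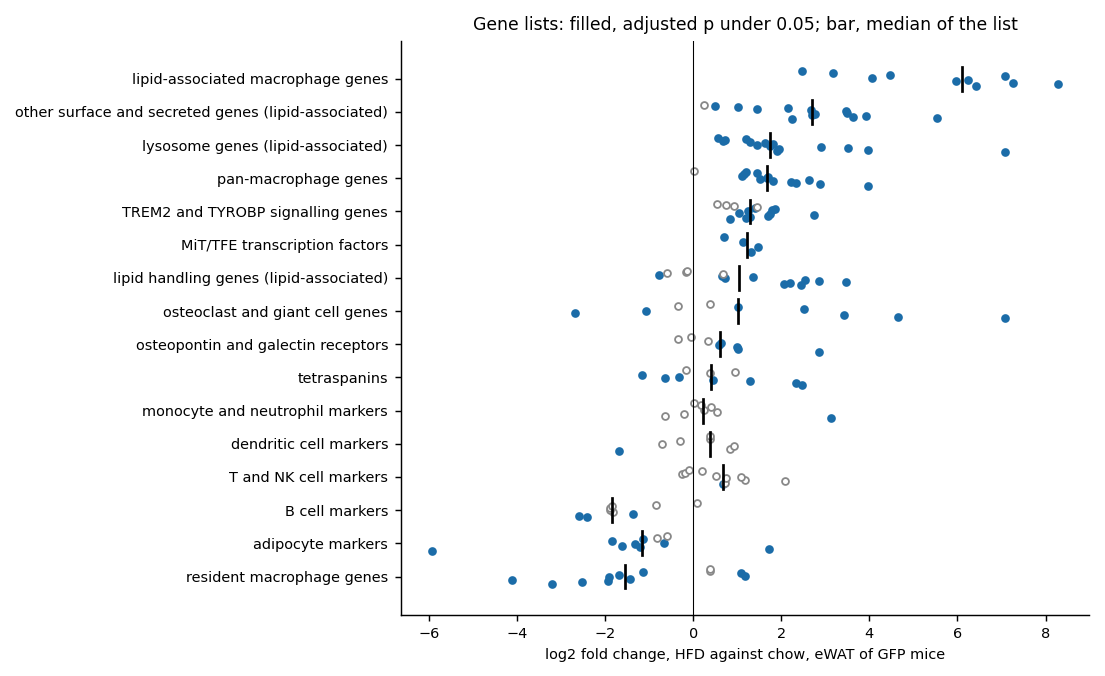
Log2 fold change of HFD against chow in eWAT of GFP mice (horizontal axis, log2(FPKM + 0.5) scale) for every tested gene of 16 lists (vertical axis); each circle is 1 gene, filled where limma's adjusted p was under 0.05 and open where not, and bars are list medians. The 10 lipid-associated macrophage genes have a median of 6.11, the lysosome genes 1.75, the general macrophage genes 1.68 and the resident macrophage genes -1.56.

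The genes whose levels followed Trem2 most closely over the 24 libraries were C3ar1 (Pearson r = 0.977), Adgre1 (0.975), Rab7b, Calm2 and Atf3 (each 0.974), Sdcbp (0.973), Arl11 (0.972), Cd68 (0.971), Cd200r1 and Mfsd12 (each 0.970), out of 11534 protein-coding genes whose mean reached 1 FPKM. The other 9 members had r from 0.870 (Spp1) to 0.963 (Tyrobp). These values describe libraries that share depot and diet. After each group's mean was taken away, over the 12 eWAT libraries, the closest genes were Mitf (0.985), Cd84 (0.983), Rrm1 (0.972), Dppa3 (0.970), Arl11 and Snx5 (each 0.969), Cbl (0.968), Qpct (0.965), Rab7b (0.963) and Cd200r1 (0.962). Among the 10 members the 45 pairs had r from 0.529 to 0.960 with a median of 0.851, so that a library high in 1 member tended to be high in the others. The points share libraries, the scale of each library and the low irisin HFD 2 library.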

How the data were processed

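RNA was measured in 24 libraries of polyadenylated RNA, 12 from eWAT and 12 from iWAT, in 8 groups of 3 given by the sample titles. The submitters' processing notes name HISAT2 2.0.5 for alignment and featureCounts 1.5.0-p3 for counting. The authors deposited FPKM per gene without naming a build in the sources used here. Positions of all 10 genes equal those of GENCODE M21 (GRCm38). Whether libraries keep strand is not given, so reads of overlapping genes may be shared. Another 8 numeric columns of the table were not used.

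Genes that reached 0.5 FPKM in 3 or more of the fitted libraries were tested with limma 3.58.1 (R 4.3.3, trend) on log2(FPKM + 0.5), 4 groups of a depot in 1 fit or all 8 for depot comparisons, with Benjamini-Hochberg adjustment over all genes and a threshold of 0.05, for 17 comparisons. Exact permutation of 3 against 3 libraries cannot reach p under 0.1. FPKM times length gave whole reads (100% of values within 0.01), which voom used as an alternative. Other alternatives were pseudocounts of 0.1 and 1, no filter, a replicate block, leaving out each library, and, added after seeing the data, leaving out 4 libraries rich in other tissues and the values relative to macrophage genes. The model was also run on simulated data, and no outcome of that run is used here. All members are named, and up to 4 genes a list, those with the smallest adjusted p in eWAT GFP mice. The members and lists were chosen with earlier results of these data known. Python 3.11.15 with matplotlib 3.10.9 drew the figures.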

Additional observations from a re-analysis of the deposited data

Results flagged for a closer look

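With all 24 libraries fitted by limma, the effect of HFD differed between the depots for all 10 genes. The test of the difference itself (the eWAT effect less the iWAT effect, limma, 24 libraries, log2 scale) passed the threshold in both vectors. In GFP mice the difference was 4.29 for Trem2 and 3.15 for its adaptor Tyrobp. The secreted proteins had 7.98 (Spp1), 7.24 (Mmp12) and 3.33 (Lgals3), and the membrane proteins 7.20 (Gpnmb), 2.50 (Cd9), 5.86 (Rnf128), 4.42 (Tm4sf19) and 5.07 (Vsig8). In irisin mice the receptor pair had 4.07 (Trem2) and 3.66 (Tyrobp). The secreted proteins had 7.57 (Spp1), 5.47 (Mmp12) and 2.95 (Lgals3), and the membrane proteins 7.44 (Gpnmb), 2.22 (Cd9), 4.56 (Rnf128), 3.89 (Tm4sf19) and 3.98 (Vsig8). Spp1 had the largest difference in both vectors and Cd9 the smallest. The epididymal library and the B cell library of the GFP mice and the muscle library of the irisin mice enter these values, and their part was not tested beyond leaving them out.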

How the results depend on the processing

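Over the 10 genes and 17 comparisons 63 of 170 log2 changes were called, and 0 of these 63 turned their direction under any alternative tried. Of all 170, 38 turned in at least 1 alternative, none of them called (largest size 0.996). Among the values given in the text, Lgals3 between irisin and GFP in iWAT on HFD turned from -0.24 to 0.167 without GFP HFD 2 and 0.153 without irisin HFD 2 (range with 1 library left out -0.57 to 0.167). Under settings other than leaving out 1 library, 662 of the values recomputed kept their side of the threshold and 42 fell short of it. With 1 library left out 576 kept their side, 94 fell short and 2 turned direction. The count of genes called for the depot by diet difference was the least stable. In GFP mice it went from 10 to 5 with voom, 4 without the 4 libraries rich in other tissues and 8 to 10 with 1 library left out. In irisin mice it went from 10 to 4 with no filter, 5 with voom, 3 without the 4 libraries and 2 to 10 with 1 library left out. The libraries whose loss moved it were all 3 eWAT irisin chow, eWAT irisin HFD 1 and 3, iWAT irisin chow 2 and 3, and iWAT irisin HFD 2 and 3. For HFD against chow in the iWAT of irisin mice the count of 2 became 1 with no filter, 1 with the replicate block (Cd9, adjusted p = 0.0513), 1 without the 4 libraries and 1 to 2 with 1 library left out. The single call between depots in irisin mice on chow (Spp1) became 0 with voom. Relative to general macrophage genes Gpnmb in iWAT turned from 0.13 to -0.0812 without GFP HFD 2 and to -0.0974 without irisin HFD 1, and reached 0.312 without GFP HFD 1. The cause of these changes was not tested.

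Over all genes the counts called also moved by over 1.5 times: for HFD against chow in eWAT of GFP mice from 4310 to 2670 without the 4 libraries, in iWAT of GFP mice from 382 to 161 with no filter and 251 without the 4 libraries, in iWAT of irisin mice from 1453 to 894 with no filter, for the depot by diet difference in GFP mice from 762 to 506, 419 and 272 (no filter, voom, without the 4 libraries), and in irisin mice from 659 to 254, 392 and 390. Leaving out 1 library moved them further: for HFD against chow to between 2643 and 4025 in eWAT of GFP mice, 1116 and 4165 (from 2831) in that of irisin mice, 0 and 494 in iWAT of GFP mice and 266 and 1211 in that of irisin mice, for the depot by diet difference to between 268 and 1152 in GFP mice and 62 and 2419 in irisin mice, and for the depots on HFD to between 1363 and 3713 (from 2695, GFP mice) and 595 and 3126 (from 1819, irisin mice). The shares of all genes called that stand beside the counts move likewise. Deviations from group means were correlated between depots within a vector and diet. Same-numbered libraries had r from -0.170 to 0.357 (median 0.0137, 12 pairs), and others from -0.397 to 0.418 (median -0.00703, 24 pairs). With 3 candidates each, 8 of 24 libraries correlated best with their own number. Within a depot, where equal numbers come from different groups, r ran from -0.351 to 0.325 (median 0.028, 36 pairs). So few pairs cannot decide whether a number marks a shared mouse or batch, and the numbers were not taken as pairs. The replicate block changed no other call of the 10 genes. With 3 libraries a group, and with Tm4sf19 at 3 and Vsig8 at 18 reads in eWAT GFP chow, depth limits the low end of the folds.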

Other observations

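The wider program of lipid-associated macrophages also differed between depots in its response to HFD. In GFP mice the difference (eWAT effect less iWAT effect, limma, adjusted over all genes) was called upward for 8 of 15 lysosome genes (median 1.64 on the log2 scale), 8 of 14 tested surface and secreted genes (2.20), 5 of 15 lipid genes (0.53) and 3 of 14 general macrophage genes (1.95), beside a median of 0.00 and a share of 2.98% called upward over all genes. Of 12 resident macrophage genes 3 were called downward (median -0.56). Of all 17687 genes 762 were called in this test, 527 of them upward. In irisin mice, where 2.71% of all genes were called upward, it was called upward for 8 of 15 lysosome genes (1.29), 5 of 14 surface and secreted genes (2.12), 3 of 15 lipid genes (0.59) and 10 of 14 general macrophage genes (2.88), and for 1 of 12 resident genes (0.91). Within the iWAT of irisin mice 2 of 14 general and 3 of 12 resident macrophage genes fell on HFD, where 4.19% of all genes did (medians -1.46 and -1.83). In that of GFP mice 0 of either list were called by limma (medians -0.23 and -0.66), where 2.37% of all genes were called in either direction.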
